A study of Mus musculus with 19 samples.

Results

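The 8 genes followed here separate helper and regulatory CD4 T cells from CD8 T cells, and were measured in purified mouse CD8 T lymphocytes: Foxp3, Ikzf2, Ikzf4, Nrp1, Cd40lg, Cd4, Zbtb7b and Runx3. They are 8 of the 19938 genes on 19 Affymetrix arrays for mouse genes, hybridised with 0.125 µg of RNA apiece, and each was read by the probe set that carries only its symbol. Every one of the 8 had exactly 1 such probe set, so that no probe set was chosen by its brightness, the mean signal over the 19 arrays. The gene symbols were chosen with earlier results of these arrays known, and the tests on them are therefore descriptions of these arrays rather than independent evidence.

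The cells fell into 6 groups. T-betKO Stat5ca cells after transfer (n = 3, arrays 39, 40 and 41) lacked T-bet, carried Stat5ca, a constantly active form of the transcription factor Stat5, and were recovered on days 14, 14 and 54. Stat5ca cells after transfer (n = 4, arrays 11 to 14) were recovered on day 20, and control cells after transfer (n = 2, arrays 30 and 32) on days 18 and 120. Cells were also taken after 72 h of activation, as Stat5ca cells sorted for the GFP marker of transduction (n = 2, arrays 9 and 10) and as control cells that the labels do not describe as transduced (n = 4, arrays 1 to 4). Naive cells (n = 4, arrays 33 to 36) had not been activated. All but the T-betKO cells were TCRP1A cells, which are transgenic for 1 T-cell receptor and Rag-1-/- on the B10.D2 background. Of these, all but the naive cells were activated with their antigen. The T-betKO cells are labelled as C57BL/6 strain with a B10.D2 background, were activated through CD3 and CD28, and are given no TCRP1A or Rag-1-/- in their genotype label, although the design text calls them TCRP1A. Transferred cells came from the spleen and lymph nodes of congenic hosts. The labels give no ages and do not name the animal or culture behind an array; the p-values therefore reflect only how far these arrays differ, which may be technical.

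In the thymus, T cells with both coreceptors become either CD4 or CD8 cells. Zbtb7b, also called ThPOK, directs the CD4 fate, whereas Runx3 silences Cd4 and directs the CD8 fate. Foxp3 is the defining transcription factor of regulatory T cells, its transcription is promoted by interleukin-2 acting through Stat5, and the Ikaros-family factors encoded by Ikzf2 (Helios) and Ikzf4 (Eos) accompany it there. Nrp1 encodes neuropilin-1, a coreceptor for semaphorins and VEGF found on thymus-derived regulatory T cells, and Cd40lg encodes the CD40 ligand through which helper T cells activate B cells and dendritic cells.

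Values are log2 signals as deposited, and a signal under 7.30, the 95th percentile of the mean signals of 1190 olfactory and vomeronasal receptor genes, is called under background. Probe sets differ in brightness, so that levels were compared between groups and never between genes. A gene was called changed where limma gave a Benjamini-Hochberg adjusted p under 0.05 over all 19938 genes of the comparison; all adjusted p-values below come from limma in this way. The altered genes followed the labels. Stat5a averaged 12.06 ± 0.09 in Stat5ca cells at 72 h and 10.56 ± 0.04 in control cells at 72 h (SD, n = 2 and 4), and 11.68 ± 0.12 in Stat5ca cells after transfer against 10.25 ± 0.30 in control cells after transfer. Tbx21, which encodes T-bet, averaged 8.24 ± 0.09 in T-betKO Stat5ca cells and 11.83 ± 0.10 in Stat5ca cells after transfer. Stat5a itself was lower in T-betKO Stat5ca cells than in Stat5ca cells after transfer, by 0.75 ± 0.11 on the log2 scale (SE, adjusted p = 0.00033).

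The preparations were not equally free of other cells. The mean log2 signal of 14 macrophage and monocyte markers was 10.61 to 12.30 in T-betKO Stat5ca cells, 9.48 to 10.46 in Stat5ca cells after transfer, 12.24 to 12.34 in control cells after transfer, 6.96 to 7.01 in Stat5ca cells at 72 h, 7.77 to 8.54 in control cells at 72 h, and 7.69 to 11.67 in naive cells. Naive arrays 34 and 36 stood at 11.67 and 11.54, while naive arrays 33 and 35 stood at 7.69 and 8.45. Dendritic-cell markers (9 genes) varied alike, from 7.58 to 7.86 at 72 h up to 10.55 in control cells after transfer. The mean of 2 NK-cell markers was 9.55 to 11.09 in Stat5ca and 8.24 to 8.83 in control cells after transfer. It was 8.34 to 8.72 in T-betKO Stat5ca cells and 7.07 to 9.35 in naive cells. At 72 h it was 6.18 to 6.59 with Stat5ca and 6.21 to 6.49 without it. The 1 erythroid marker measured stood at 8.93 and 13.62 on control arrays 30 and 32. The mean of 5 B-cell markers ran from 7.07 to 7.89 over the arrays, with 2 of the 5 called higher in T-betKO Stat5ca than in Stat5ca cells after transfer, 3 lower in Stat5ca than in control cells after transfer, and 2 higher in control cells after transfer than in naive cells. Among these 5, Ms4a1 and Cd79a were under background on all 19 arrays, although the mean of the 5 reached 7.89, above background. The part of B-cell RNA in the members was not tested. The mean of 7 CD8 T-cell markers stayed above 12 on every array and reached 13.05. Of these 7, 5 fell in T-betKO Stat5ca against Stat5ca cells after transfer (median −0.51), 6 rose in Stat5ca against control cells after transfer (median 0.64), and 7 fell in control cells after transfer against naive cells (median −0.59). In such bulk RNA, fewer cells of a type and less RNA per cell cannot be told apart.

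Each member had its own pattern over the groups, and no comparison called all 8. Foxp3 was highest in T-betKO Stat5ca cells after transfer and next highest in Stat5ca cells at 72 h. Ikzf2 was high at 72 h with or without Stat5ca, and Ikzf4 was higher with Stat5ca than without it at both times. Cd40lg rose above background in T-betKO Stat5ca cells alone. Runx3 stayed far above background throughout, between 11.20 and 12.90. Among naive and transferred cells, Cd4, Zbtb7b and Nrp1 tended to be higher on arrays rich in macrophage markers, as described with each of them. At 72 h, where the macrophage mean was at most 8.54, Nrp1 was at least 9.04 and Zbtb7b reached 9.29.

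**Figure D1:**
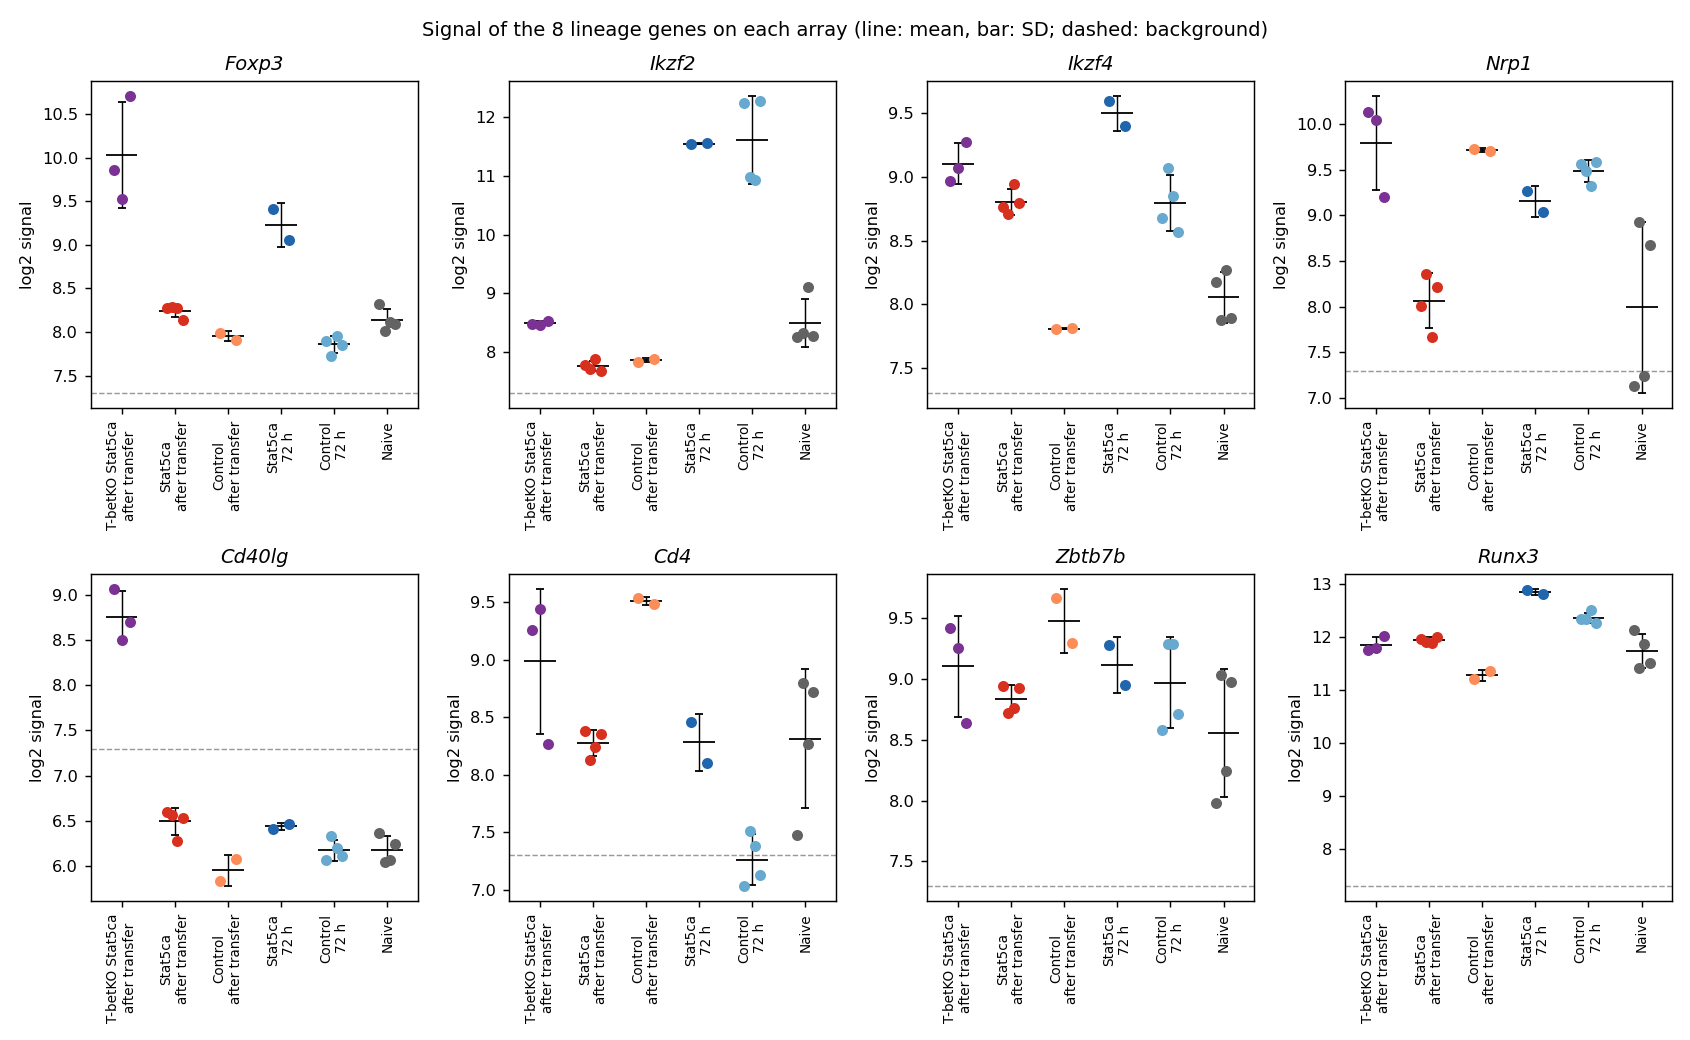
Log2 signal of the 8 genes on every array (points), with the mean (line) and SD (bar) of each group and the background of 7.30 (dashed line); groups run from T-betKO Stat5ca cells after transfer on the left to naive cells on the right, and each panel has its own vertical scale. Foxp3 and Cd40lg peak in T-betKO Stat5ca cells, Ikzf2 in both 72 h groups, and Cd40lg lies under background on the other 16 arrays.

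Counted over the comparisons, members were called as follows. In T-betKO Stat5ca against Stat5ca cells after transfer, 3 of 8 rose (Foxp3, Cd40lg and Nrp1), where 20.8% of all genes were called, 7.03% higher and 13.8% lower. In Stat5ca against control cells after transfer, 3 of 8 were called higher and 2 lower, where 25.4% of genes were called, 16.9% higher and 8.46% lower; 1 of the 3, Cd40lg, lay under background in both groups. In Stat5ca against control cells at 72 h, 3 of 8 rose (Foxp3, Ikzf4 and Cd4), where 5.72% of genes were called, 2.37% higher and 3.35% lower. In control cells after transfer, 3 of 8 rose and 1 fell against naive cells, where 17.7% of genes were called, 7.94% higher and 9.81% lower. Each of these 4 calls was lost without control array 30 or without control array 32 (adjusted p = 0.0608 to 0.256). Against control cells at 72 h, 1 rose and 3 fell after transfer, where 37.5% were called, 13.1% higher and 24.4% lower. In Stat5ca cells after transfer, 4 of 8 fell against Stat5ca cells at 72 h, where 21.3% were called, 8.61% higher and 12.7% lower. In control cells at 72 h, 4 of 8 rose and 2 fell against naive cells, where 46.8% were called, 22.0% higher and 24.9% lower. The Stat5ca effect after transfer was below that at 72 h for 2 of 8, Foxp3 and Cd4, where 17.8% were called, 12.3% higher and 5.48% lower. The members' median change ran from −0.81 for Stat5ca cells after transfer against 72 h to 0.72 for T-betKO Stat5ca against Stat5ca cells after transfer. It was 0.52 for control cells at 72 h against naive cells, 0.38 for Stat5ca against control cells at 72 h, 0.10 for Stat5ca against control cells after transfer, −0.06 and −0.21 for control cells after transfer against 72 h and against naive cells, and −0.41 for the difference of Stat5ca effects. The medians over all genes lay between −0.12 and 0.08.

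**Figure D2:**
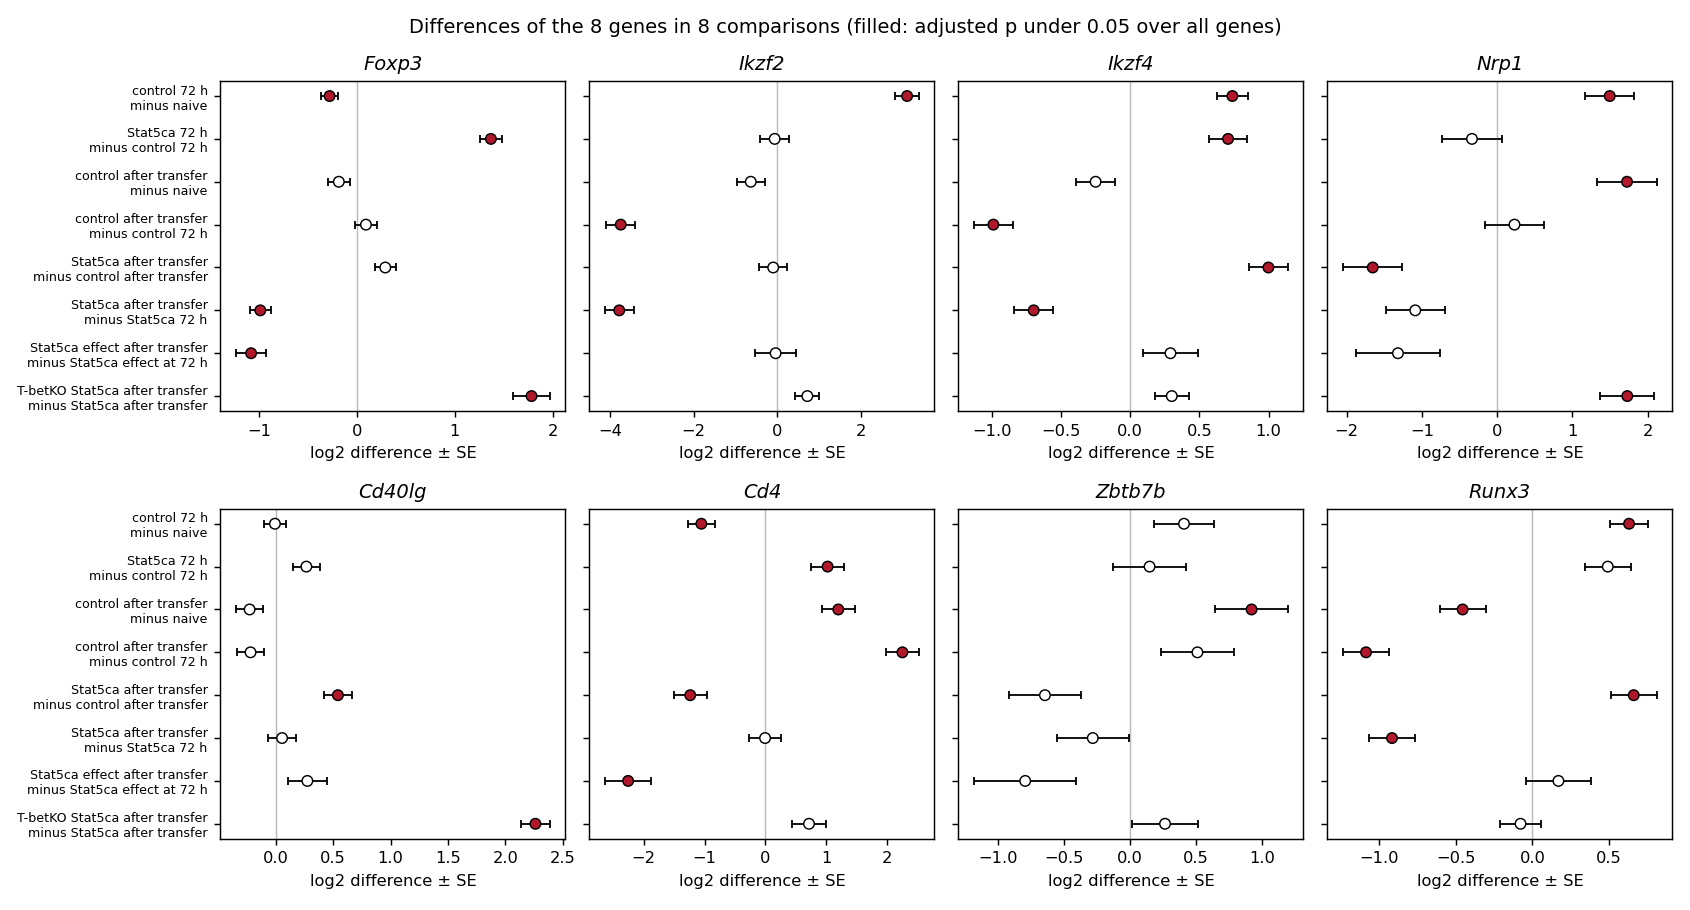
Log2 differences (points) with their standard errors (bars) of the 8 genes in the 8 comparisons, each named as first group minus second group; filled points passed an adjusted p under 0.05 over all genes. Foxp3, Ikzf4 and Cd4 are filled for Stat5ca against control at 72 h, and Foxp3, Cd40lg and Nrp1 for T-betKO Stat5ca against Stat5ca after transfer.

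Foxp3 lies on chromosome X (GRCm38 chrX:7579676-7595243) and was above background on all 19 arrays. After transfer it stood at 9.86, 9.52 and 10.71 in T-betKO Stat5ca cells, at 8.28, 8.29, 8.27 and 8.13 in Stat5ca cells, and at 7.99 and 7.91 in control cells. At 72 h its signals were 9.41 and 9.05 in Stat5ca cells and 7.90, 7.72, 7.96 and 7.85 in control cells, and naive cells had 8.32, 8.02, 8.11 and 8.09. All 3 T-betKO arrays lay above every other array, and both Stat5ca arrays at 72 h lay above the other 14. Foxp3 was 3.45-fold higher in T-betKO Stat5ca cells than in Stat5ca cells after transfer (log2 1.79 ± 0.19 SE, adjusted p = 2e-05). At 72 h it was 2.59-fold higher in Stat5ca cells than in control cells (1.37 ± 0.11, adjusted p = 1.03e-05), the 134th largest difference of all genes in that comparison. After transfer the difference between Stat5ca and control cells was 0.29 ± 0.11 and missed the threshold (adjusted p = 0.0639), although the 4 and 2 arrays did not overlap. The Stat5ca effect was smaller after transfer than at 72 h (a difference of −1.08 ± 0.15, adjusted p = 0.000388). Within Stat5ca cells Foxp3 was lower after transfer than at 72 h (−0.98 ± 0.11, adjusted p = 1.72e-05). In control cells at 72 h it was lower than in naive cells by a small margin (−0.28 ± 0.09, adjusted p = 0.0201), a call lost without naive array 33 (−0.21), without control array 2 (−0.23) and with all 19 arrays in the fit (adjusted p = 0.196).

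The order of Foxp3 means was T-betKO Stat5ca cells after transfer (10.03 ± 0.61), Stat5ca cells at 72 h (9.23 ± 0.25), Stat5ca cells after transfer (8.24 ± 0.07), naive cells (8.14 ± 0.13), control cells after transfer (7.95 ± 0.06) and control cells at 72 h (7.86 ± 0.10). Neighbours overlapped between Stat5ca cells after transfer and naive cells, and between the control groups. Foxp3 was highest on T-betKO array 41, recovered on day 54, where the macrophage mean was 10.61. Arrays 40 and 39, recovered on day 14, had macrophage means of 12.23 and 12.30. In Stat5ca cells at 72 h that mean was 6.96 and 7.01. The part of cells other than macrophages in the Foxp3 signal was not tested. With the macrophage level in the fit, the T-betKO difference was 1.95 ± 0.19 and the difference at 72 h was 1.32 ± 0.11. Such a fit takes its macrophage slope only from differences between arrays of the same group. Where the macrophage means of the compared groups do not overlap, as here, its values are extrapolated. With array 41 as the only T-betKO array, Foxp3 was 2.46 higher than in Stat5ca cells after transfer, a value without T-betKO replication.

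RefSeq lists 2 promoter windows for Foxp3 on GRCm38, each from 250 bases before to 50 after a transcript start. One is shown because Foxp3 was 1 of the 3 members called higher with Stat5ca at 72 h and this window holds a match to the Stat5 palindrome TTCNNNGAA, which is the same on both strands. It spans chrX:7580233-7580532 on the plus strand, and capitals mark the match TTCCAAGAA, which begins at −139 from the start.
Foxp3 promoter: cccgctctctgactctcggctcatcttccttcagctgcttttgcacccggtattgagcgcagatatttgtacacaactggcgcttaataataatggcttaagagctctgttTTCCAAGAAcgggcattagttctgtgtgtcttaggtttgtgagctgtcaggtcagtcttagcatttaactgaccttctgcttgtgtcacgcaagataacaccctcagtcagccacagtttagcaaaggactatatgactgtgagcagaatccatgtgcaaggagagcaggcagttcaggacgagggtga
The other Foxp3 window, at chrX:7579426-7579725, has no such match, and neither do the windows of Runx3, Zbtb7b and Nrp1. For Ikzf4 and Cd4, the other members called higher with Stat5ca at 72 h, no window was available to search. Of 32817 RefSeq promoter windows of this length, 8.29% hold it. A match is a run of letters and not a measured binding site.

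Ikzf2, on chromosome 1 (GRCm38 chr1:69531207-69687351), encodes Helios and had the largest differences of the 8, all of them between 72 h and the other stages. After transfer it stood at 8.49, 8.45 and 8.53 in T-betKO Stat5ca cells, 7.78, 7.72, 7.89 and 7.68 in Stat5ca cells, and 7.83 and 7.88 in control cells. At 72 h it stood at 11.54 and 11.55 in Stat5ca cells and at 12.24, 10.99, 10.92 and 12.27 in control cells, beside 8.26, 8.32, 9.10 and 8.27 in naive cells. The 6 arrays at 72 h lay above all 13 others. Ikzf2 was 8.67-fold higher in control cells at 72 h than in naive cells (log2 3.12 ± 0.28, adjusted p = 5.23e-07) and ranked 71st by size among all genes. At 72 h the difference between Stat5ca and control cells was −0.06 ± 0.34 (adjusted p = 0.952), within the spread of the control arrays. Ikzf2 was lower after transfer than at 72 h, by −3.75 ± 0.34 in control cells (adjusted p = 9.08e-07) and by −3.78 ± 0.34 in Stat5ca cells (adjusted p = 2.91e-06). In Stat5ca cells after transfer it averaged 7.76 ± 0.09, against 7.86 ± 0.03 in control cells after transfer, and both groups lay under every naive array. T-betKO Stat5ca cells averaged 8.49 ± 0.04, and all 3 arrays lay above the 4 Stat5ca arrays, yet the difference of 0.73 ± 0.28 missed the threshold (adjusted p = 0.0817).

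The 4 control arrays at 72 h formed 2 pairs for Ikzf2, with arrays 1 and 4 at 12.24 and 12.27 and arrays 2 and 3 at 10.99 and 10.92. Xist, a transcript of the inactive X chromosome made in female cells, split the same arrays into 6.18 and 6.35 against 12.92 and 12.84. The macrophage mean also split them, into 8.54 and 8.45 against 7.77 and 7.77. The part of either in the Ikzf2 levels was not tested. With Xist in the fit, the difference between control cells at 72 h and naive cells was 2.78 ± 0.24 (adjusted p = 9.87e-07). The Stat5ca arrays at 72 h had Xist at 5.97 and 12.52 and nearly equal Ikzf2.

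Ikzf4, on chromosome 10 (GRCm38 chr10:128630839-128669671), encodes Eos and was higher with Stat5ca at both times. Its signals after transfer were 8.96, 9.07 and 9.28 in T-betKO Stat5ca cells, 8.77, 8.71, 8.95 and 8.79 in Stat5ca cells, and 7.80 and 7.81 in control cells. At 72 h they were 9.60 and 9.40 in Stat5ca cells and 8.68, 9.07, 8.85 and 8.57 in control cells, and naive cells had 8.18, 7.88, 8.27 and 7.89. Stat5ca and control arrays did not overlap at either time. After transfer, Ikzf4 was 1.0 ± 0.14 higher in Stat5ca cells than in control cells on the log2 scale (adjusted p = 0.000208). At 72 h it was 0.71 ± 0.14 higher (adjusted p = 0.00957), a call lost without Stat5ca array 9 (0.61) or 10 (0.80). The difference between these effects was 0.29 ± 0.20 and missed the threshold (adjusted p = 0.379). In control cells Ikzf4 rose at 72 h against naive cells (0.74 ± 0.11, adjusted p = 0.000107) and was lower after transfer than at 72 h (−0.99 ± 0.14, adjusted p = 5.05e-05). In Stat5ca cells it was lower after transfer than at 72 h (−0.70 ± 0.14, adjusted p = 0.00219), but with the macrophage level in the fit this difference was −0.34 (adjusted p = 0.158). T-betKO Stat5ca cells exceeded Stat5ca cells after transfer by 0.30 ± 0.12 (adjusted p = 0.0971), which did not pass.

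Cd40lg, on chromosome X (GRCm38 chrX:57212143-57224042), was under background on all 16 TCRP1A arrays and above it on all 3 T-betKO arrays. Its signals after transfer were 9.07, 8.50 and 8.70 in T-betKO Stat5ca cells, 6.60, 6.57, 6.27 and 6.53 in Stat5ca cells, and 5.83 and 6.08 in control cells. At 72 h they were 6.41 and 6.47 in Stat5ca cells and 6.07, 6.33, 6.20 and 6.11 in control cells, and naive cells had 6.37, 6.05, 6.07 and 6.25. Counted from the background, Cd40lg was at least 2.75-fold higher in T-betKO Stat5ca cells than in Stat5ca cells after transfer, with measured means of 8.76 and 6.49 (adjusted p = 9.62e-09). Array 41, at 8.70, by itself also lay above all 16 TCRP1A arrays. The call for Stat5ca against control cells after transfer (0.54 ± 0.12, adjusted p = 0.00383) compared groups that were both under background, and no change was read from it.

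Nrp1, on chromosome 8 (GRCm38 chr8:128358591-128505476), was low in naive cells and in transferred Stat5ca cells. After transfer it stood at 10.14, 10.04 and 9.20 in T-betKO Stat5ca cells, 8.00, 8.36, 7.67 and 8.22 in Stat5ca cells, and 9.73 and 9.70 in control cells. Its signals at 72 h were 9.27 and 9.04 in Stat5ca cells and 9.56, 9.49, 9.32 and 9.58 in control cells, beside 7.13, 8.92, 7.24 and 8.68 in naive cells. Naive arrays 33 and 35 were under background, and the other naive pair was over 1 unit higher. Nrp1 was 3.31-fold higher in T-betKO Stat5ca cells than in Stat5ca cells after transfer (1.73 ± 0.36, adjusted p = 0.00327). RNA integrity numbers were 7, 6 and 8 on T-betKO arrays 39, 40 and 41 and 8 or 9 on the Stat5ca arrays, and with that number in the fit the call was lost (1.53, adjusted p = 0.068). In Stat5ca cells after transfer it was 3.14-fold lower than in control cells after transfer (−1.65 ± 0.39, adjusted p = 0.00643), a call narrowly lost without control array 30 (−1.64) or 32 (−1.67). It was higher than in naive cells in control cells at 72 h (1.49 ± 0.32, adjusted p = 0.00171) and in control cells after transfer (1.72 ± 0.39, adjusted p = 0.0094). The second call was lost without control array 30 (adjusted p = 0.0618) or 32 (adjusted p = 0.0778) and with only the compared groups in the fit (adjusted p = 0.13). Without naive arrays 33 and 35, the values were 0.69 at 72 h and 0.92 after transfer, and both passed.

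Macrophage markers moved with Nrp1 among naive and transferred cells but not at 72 h, where Nrp1 was above 9 with macrophage means of at most 8.54. With the macrophage level in the fit, Nrp1 was 1.03 ± 0.11 higher in T-betKO Stat5ca cells than in Stat5ca cells after transfer, differed by −0.72 ± 0.13 in Stat5ca against control cells after transfer, and was 2.26 ± 0.11 higher in control cells at 72 h and 0.62 ± 0.14 higher in control cells after transfer than in naive cells. In that fit it was also lower in control cells after transfer than at 72 h (−1.64 ± 0.18, adjusted p = 1.4e-05), where the fit without it gave 0.23 ± 0.39 (adjusted p = 0.717). Macrophage means of these control groups did not overlap (12.24 to 12.34 after transfer, 7.77 to 8.54 at 72 h). The slope came from spread within groups, which was widest in naive cells (7.69 to 11.67). That value is therefore an extrapolation, and no change was read from it. With array 41 as the only T-betKO array, whose macrophage mean was close to that of Stat5ca cells, the Nrp1 difference was 1.13. This value has no T-betKO replication and was not read as a change.

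Cd4, on chromosome 6 (GRCm38 chr6:124864693-124888247), encodes the coreceptor that CD8 T cells lack and that some dendritic cells and macrophages also carry. After transfer it stood at 9.26, 9.44 and 8.27 in T-betKO Stat5ca cells, 8.38, 8.13, 8.24 and 8.35 in Stat5ca cells, and 9.53 and 9.48 in control cells. At 72 h it stood at 8.46 and 8.10 in Stat5ca cells and 7.03, 7.51, 7.38 and 7.13 in control cells, and in naive cells at 7.48, 8.80, 8.27 and 8.72. Control cells at 72 h were lowest, with arrays 1 and 4 under background, and control cells after transfer were highest. Counted from the background, Cd4 was at least 4.63-fold higher in control cells after transfer than in control cells at 72 h, with measured means of 9.51 and 7.26 (adjusted p = 1.11e-05), while the macrophage mean was 12.24 to 12.34 in control cells after transfer and 7.77 to 8.54 in control cells at 72 h. The measured difference was 2.25 ± 0.27, and with that mean in the fit it was 1.30 ± 0.30 (adjusted p = 0.00677). In Stat5ca cells after transfer Cd4 was 2.35-fold lower than in control cells after transfer (−1.23 ± 0.27, adjusted p = 0.00361), and −0.76 ± 0.22 with the macrophage level in the fit.

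At 72 h Cd4 went the other way, being at least 1.98-fold higher in Stat5ca cells than in control cells when counted from the background, with measured means of 8.28 and 7.26 (adjusted p = 0.0386), where the macrophage mean was lower in Stat5ca cells (6.96 and 7.01, against 7.77 to 8.54). The Stat5ca and control arrays at 72 h did not overlap. The measured difference was 1.02 ± 0.27, and its call was lost without Stat5ca array 9 (0.84) or 10 (1.20), without control array 1 (0.94) or 4 (0.97), after quantile normalization (adjusted p = 0.0756), with the RNA integrity number in the fit (adjusted p = 0.0697) and with all 19 arrays in it (adjusted p = 0.076). The Stat5ca effects on Cd4 after transfer and at 72 h differed by −2.25 ± 0.38 (adjusted p = 0.00107), and by −2.04 ± 0.27 with the macrophage level in the fit. In T-betKO Stat5ca cells Cd4 averaged 8.99 ± 0.63, against 8.27 ± 0.11 in Stat5ca cells after transfer, and the difference of 0.71 ± 0.28 did not pass (adjusted p = 0.0806). The value rested on arrays 39 and 40: it was 1.07 without array 41 and −0.01 with array 41 alone.

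Zbtb7b, on chromosome 3 (GRCm38 chr3:89377644-89393673), passed in the fewest comparisons of the 8 genes. After transfer it stood at 9.41, 9.26 and 8.64 in T-betKO Stat5ca cells, 8.94, 8.72, 8.76 and 8.92 in Stat5ca cells, and 9.67 and 9.29 in control cells. Its signals at 72 h were 9.28 and 8.95 in Stat5ca cells and 8.58, 9.29, 9.29 and 8.71 in control cells, beside 7.98, 9.03, 8.25 and 8.97 in naive cells. Every group of 3 or more arrays overlapped with at least 1 other, and the naive and 72 h control arrays each fell into the same pairs as their macrophage means, in opposite directions. Of the 8 comparisons Zbtb7b passed in 1, being higher in control cells after transfer than in naive cells (0.92 ± 0.27, adjusted p = 0.032). That call was lost with the macrophage level in the fit (0.42, adjusted p = 0.487) and without control array 30 (0.74) or 32 (1.11), and was also lost without naive arrays 33 and 35 (0.48). The differences between T-betKO Stat5ca and Stat5ca cells after transfer (0.27, adjusted p = 0.511), between Stat5ca and control cells after transfer (−0.64 ± 0.27, adjusted p = 0.103) and between Stat5ca and control cells at 72 h (0.15 ± 0.27, adjusted p = 0.819) did not pass.

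Runx3, on chromosome 4 (GRCm38 chr4:135120645-135177990), was among the bright genes, and its mean over the arrays exceeded that of 97.6% of genes. After transfer it stood at 11.77, 11.80 and 12.02 in T-betKO Stat5ca cells, 11.97, 11.91, 11.88 and 12.01 in Stat5ca cells, and 11.20 and 11.36 in control cells. At 72 h the signals were 12.90 and 12.81 in Stat5ca cells and 12.35, 12.34, 12.51 and 12.27 in control cells, and naive cells had 12.13, 11.42, 11.87 and 11.52. The 6 arrays at 72 h lay above the 13 others, and control cells after transfer lay under all other arrays. Runx3 rose in control cells at 72 h against naive cells (0.63 ± 0.12, adjusted p = 0.00078) and was lower after transfer than at 72 h, by −1.09 ± 0.15 in control cells (adjusted p = 4.19e-05) and by −0.92 ± 0.15 in Stat5ca cells (adjusted p = 0.000467). In Stat5ca cells after transfer it was 1.58-fold higher than in control cells after transfer (0.66 ± 0.15, adjusted p = 0.00477), a call lost without control array 30 (0.58, adjusted p = 0.064). The median change of the 7 CD8 T-cell markers was 0.64 there, and the part of CD8 T-cell content in the Runx3 difference was not tested. At 72 h the Stat5ca difference was 0.49 ± 0.15 and missed the threshold (adjusted p = 0.0706), with no overlap between the arrays. Runx3 ran against the macrophage markers. With their level in the fit, Runx3 was 0.36 ± 0.11 higher in Stat5ca than in control cells after transfer (adjusted p = 0.0358), and its call for control cells after transfer against naive cells (−0.46 ± 0.15, adjusted p = 0.0489) was lost (−0.11, adjusted p = 0.733), as it was without naive arrays 33 and 35 (−0.19, adjusted p = 0.257). With the macrophage level in the fit, its difference from 72 h was −0.49 in control and −0.46 in Stat5ca cells after transfer, and both passed. T-betKO Stat5ca and Stat5ca cells after transfer overlapped, with a difference of −0.08 (adjusted p = 0.736).

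The promoters of Runx3 and Zbtb7b are shown because Runx3 is one of the RUNX factors, which are known to silence Zbtb7b in CD8 T cells. Capitals mark TGTGGT or its reverse complement ACCACA, the core letters that RUNX factors recognise, searched on both strands. The Runx3 window, chr4:135120395-135120694 on the plus strand of GRCm38 in RefSeq, holds 2 of them, at −134 and −126 from the start. The Zbtb7b window, chr3:89387622-89387921 on the minus strand, holds 1, at −89.
Runx3 promoter: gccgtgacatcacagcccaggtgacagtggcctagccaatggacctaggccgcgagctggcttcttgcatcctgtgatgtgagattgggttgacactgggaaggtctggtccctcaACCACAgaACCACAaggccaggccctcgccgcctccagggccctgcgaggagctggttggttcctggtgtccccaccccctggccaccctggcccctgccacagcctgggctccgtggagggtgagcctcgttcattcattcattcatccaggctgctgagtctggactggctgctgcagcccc
Zbtb7b promoter: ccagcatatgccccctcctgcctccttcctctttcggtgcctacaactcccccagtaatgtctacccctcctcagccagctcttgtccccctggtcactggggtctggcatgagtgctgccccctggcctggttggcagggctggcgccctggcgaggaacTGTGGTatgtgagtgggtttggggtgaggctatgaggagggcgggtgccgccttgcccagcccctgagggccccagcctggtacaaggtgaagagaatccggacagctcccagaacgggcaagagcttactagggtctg
These letters occur in 16.8% of the 32817 RefSeq windows and are in neither of the Foxp3 windows nor in the Nrp1 window. The other windows of Runx3 and Zbtb7b have none either. In the arrays the signals of Runx3 and Zbtb7b had a correlation of −0.18 over 19 arrays.

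Across the 19 arrays, which share groups and macrophage content, the members nearest to each other were Foxp3 and Cd40lg (r = 0.865), Ikzf4 and Runx3 (0.775), Ikzf2 and Runx3 (0.769) and Nrp1 and Zbtb7b (0.741). The most opposed were Cd4 and Runx3 (−0.667). These values describe the arrays and carry no test. Cd40lg was under background on 16 of the 19 arrays, so that its correlations mostly set the T-betKO arrays apart from the others. The same holds for Trav7n-5, named below. It averaged 8.91 in T-betKO Stat5ca cells and 5.48 to 5.87 in the other groups, and was compared only because of the T-betKO level. Among 13848 genes above background in some group, those most like Foxp3 were B4galnt4 (0.919), Trbv1 (0.908) and Trav7n-5 (0.879), the last 2 being segments of T-cell receptor genes. Most like Cd40lg were Lama5 (0.972), Trav19 (0.927) and Il13 (0.925), a type 2 cytokine that averaged 11.75 in T-betKO Stat5ca cells, against 7.73 in Stat5ca cells after transfer. Ikzf4 was followed most closely by Kctd17 (0.929), Il2ra (0.922) and Fam110a (0.921). Il2ra encodes the interleukin-2 receptor alpha chain, a known Stat5 target, and averaged 12.97 in T-betKO Stat5ca cells, 12.25 in Stat5ca cells and 9.27 in control cells after transfer. Ikzf2 was most like Nrn1 (0.980), Myb (0.977) and Eif4enif1 (0.964), and Runx3 most like Zpbp2 (0.940), Ppp1r16b (0.935) and Ssbp3 (0.934). Cd4 was most like Ctsa (0.960), which encodes a lysosomal protease, Tmcc3 (0.942) and Plcg2 (0.935). Nrp1 was most like Snx9 (0.948), Nampt (0.939) and Mpp6 (0.932), and Zbtb7b most like Unc93b1 (0.916), Tmed10 (0.910) and 4931406C07Rik (0.905).

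**Figure D3:**
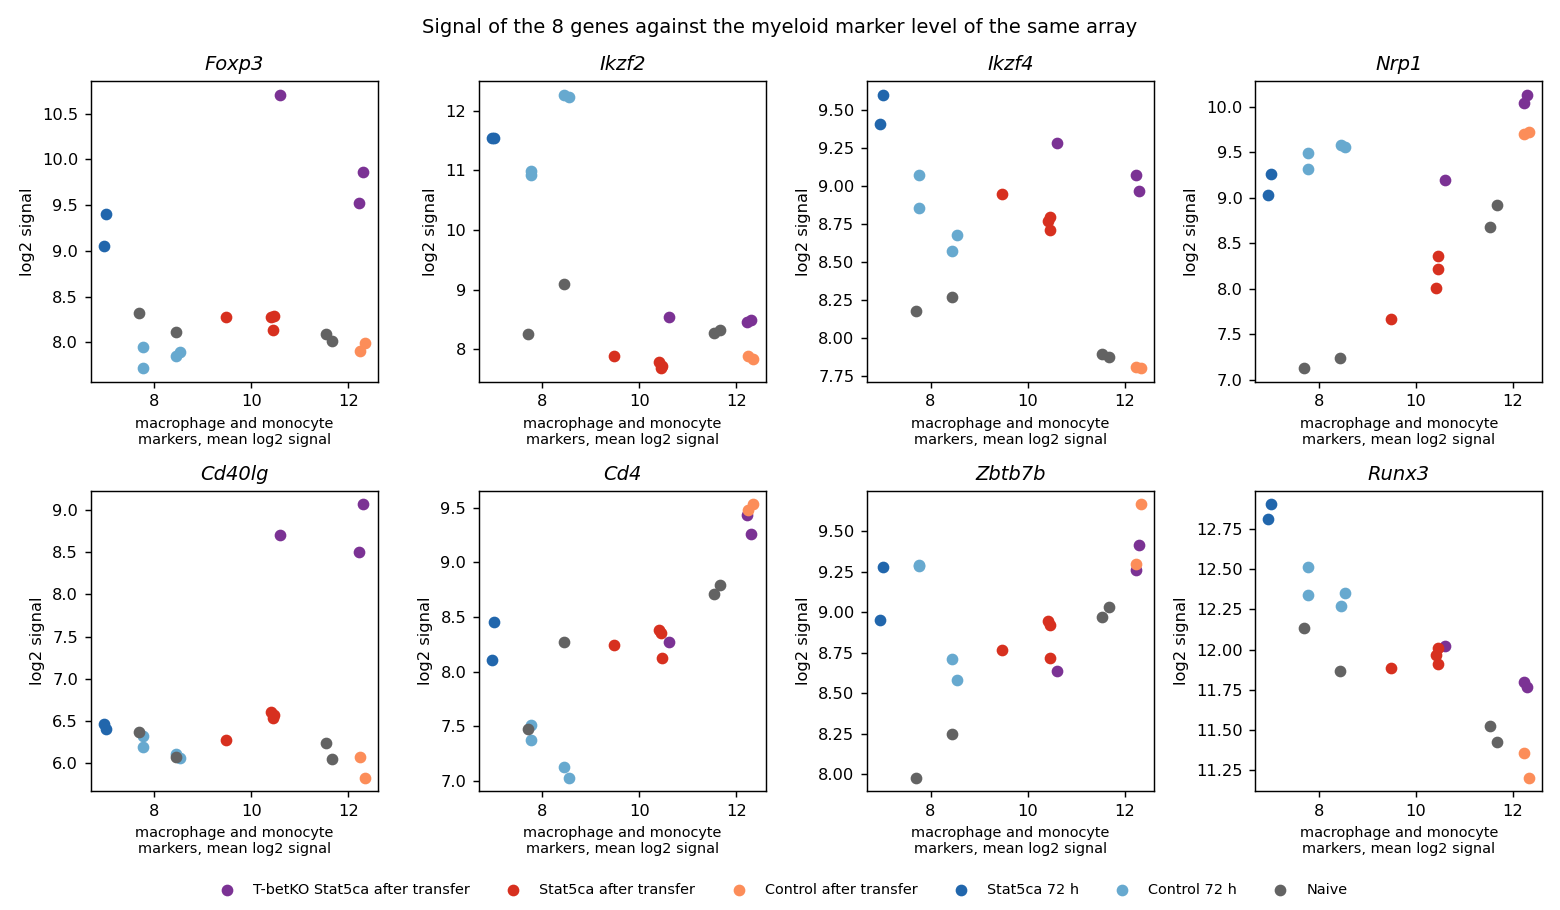
Log2 signal of each of the 8 genes (vertical axis) against the mean log2 signal of 14 macrophage and monocyte markers on the same array (horizontal axis), 1 point per array, coloured by group. Foxp3 and Cd40lg are highest in T-betKO Stat5ca cells over macrophage means of 10.61 to 12.30, while Cd4 is highest and Runx3 lowest where that mean is 12.24 to 12.34.

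Most of the measured T-cell receptor variable segments set the T-betKO arrays apart, as did Foxp3 and Cd40lg. Of 7 such segments with a probe set of their own, 5 were higher on all 3 T-betKO arrays than on all other arrays, as were 146 of all 19938 genes (0.732%). The differences of the 7 segments between T-betKO Stat5ca and Stat5ca cells after transfer ran from −1.29 to 3.35. The mean log2 signal of the 7 was 8.15, 7.79 and 8.60 on T-betKO arrays 39, 40 and 41, and 6.68 to 7.58 on the 16 TCRP1A arrays. These segments were chosen after the likeness of Trbv1, Trav7n-5 and Trav19 to members was seen, so that the count of 5 may rest in part on that choice. No test was made. The genotype, strain, stimulus, labelling protocol and recovery days of the T-betKO arrays cannot be told apart in their differences from Stat5ca cells after transfer. Xist stood at 12.25, 12.26 and 6.48 on T-betKO arrays 39, 40 and 41, against 10.09 to 12.73 on the Stat5ca arrays. RNA integrity numbers also differed, being 7, 6 and 8 against 8 or 9.

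Other genes of regulatory T cells were read from a list of 22, of which 21 were measured. In T-betKO Stat5ca against Stat5ca cells after transfer 12 of 21 rose and 2 fell, beside 7.03% and 13.8% of all genes, with a median change of 1.03 against −0.02 over all genes. The chemokine receptor gene Ccr4 rose by 4.11 ± 0.21 and the OX40 gene Tnfrsf4 by 2.34 ± 0.16. The chemokine receptor gene Ccr8 and the inhibitory cytokine gene Il10 also rose, but were under background in Stat5ca cells after transfer. Counted from the background, Ccr8 was at least 9.65-fold higher (measured means 10.57 and 6.66) and Il10 at least 1.36-fold (7.74 and 5.65) in T-betKO Stat5ca cells. Lrrc32, which encodes the TGF-beta docking protein GARP, fell (−0.41 ± 0.12), as did Il2rb (−0.57 ± 0.09). In Stat5ca against control cells after transfer 7 rose and 2 fell, beside 16.9% and 8.46% of all genes, with a median change of 0.28 against 0.08. Il10 and Ccr8, called lower and higher there, were under background in both groups. Lrrc32 rose by 3.85 ± 0.14, Il2ra by 2.99 ± 0.35, Tnfrsf9 by 1.78 ± 0.14 and Tnfrsf18, the GITR gene, by 1.54 ± 0.14. At 72 h, where Foxp3 rose with Stat5ca, 1 of the 21 rose and 3 fell, beside 2.37% and 3.35% of all genes. Lrrc32 rose by 1.26 ± 0.14, Tnfrsf9 (−0.71 ± 0.14) and Il2rb (−0.36 ± 0.09) fell, and Ccr8 fell to 6.26, under background, in Stat5ca cells, against 8.05 in control cells. In control cells at 72 h against naive cells 14 rose and 1 fell, beside 22.0% and 24.9% of all genes. Il2ra (4.04 ± 0.29), Ctla4 (3.42 ± 0.23), Tnfrsf9 (3.32 ± 0.11) and Tigit (3.27 ± 0.24) led these, while Foxp3 did not rise.

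**Figure D4:**
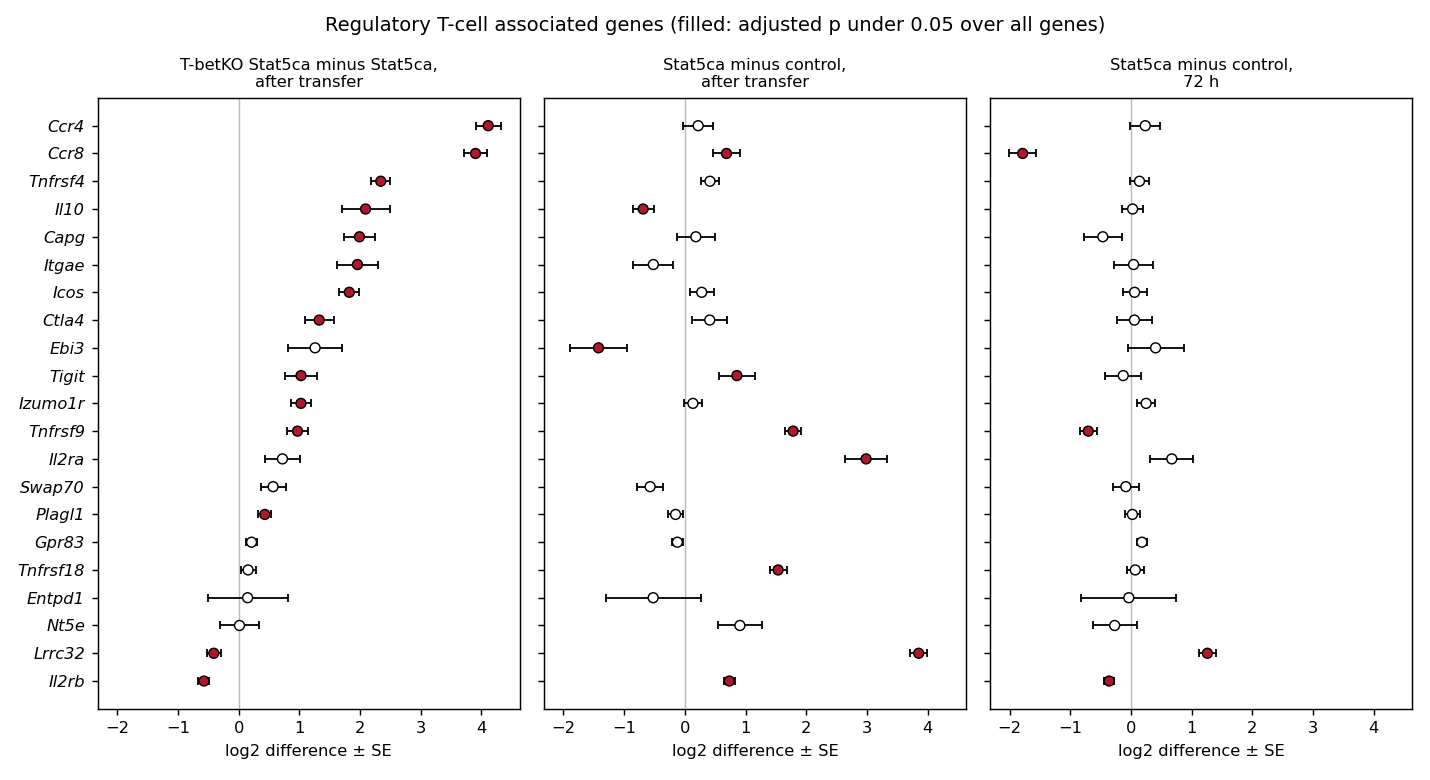
Log2 differences (points) and standard errors (bars) of 21 regulatory T-cell associated genes for T-betKO Stat5ca minus Stat5ca cells after transfer (left), Stat5ca minus control cells after transfer (middle) and Stat5ca minus control cells at 72 h (right); filled points passed an adjusted p under 0.05 over all genes. In the left panel 12 genes are filled above 0 and 2 below, and Ccr4 reaches 4.11; Ccr8 and Il10 are drawn at their measured differences, although under background in Stat5ca cells after transfer.

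Of 14 further regulators of the CD4 and CD8 fates 12 were measured, and 2 rose while 6 fell in T-betKO Stat5ca against Stat5ca cells after transfer, beside 7.03% and 13.8% of all genes and 5 falling of the 7 CD8 T-cell markers. Lef1 (−0.78 ± 0.11) and Satb1 (−0.55 ± 0.12) fell, and Myb (0.71 ± 0.15) rose. At 72 h 2 were called with Stat5ca, both higher, beside 2.37% of all genes: Runx1, the relative of Runx3 that represses Cd4 in early thymocytes, by 1.07 ± 0.09, and Lef1 by 0.79 ± 0.13. Runx1 ran opposite to Runx3 on activation, falling by −1.56 ± 0.08 in control cells at 72 h against naive cells. Control cells after transfer against naive cells had 8 falling, beside 9.81% of all genes, with Tox (−2.20 ± 0.18) and Lef1 (−1.43 ± 0.13) in front. Runx3 fell there too, and all 7 measured CD8 T-cell markers were lower in that comparison.

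Of 7 Ikaros and forkhead relatives, Ikzf3, which encodes Aiolos, moved most. It rose in Stat5ca against control cells after transfer (0.91 ± 0.09), as did Ikzf5 (0.58 ± 0.08) and Foxp1 (0.31 ± 0.08), the 3 called of the 7, beside 16.9% of all genes and 6 rising of the 7 CD8 T-cell markers. The same 3 fell in T-betKO Stat5ca against Stat5ca cells after transfer, Ikzf3 by −0.93 ± 0.17, Foxp1 by −0.60 ± 0.14 and Ikzf5 by −0.46 ± 0.08, beside 13.8% of all genes. The mean of the 7 relatives was 10.65, 10.58 and 11.02 on T-betKO arrays 39, 40 and 41, where that of the CD8 T-cell markers was 12.12, 12.003 and 12.60 and that of the macrophage markers 12.30, 12.23 and 10.61. Their part in these differences was not tested. At 72 h Ikzf3 was lower with Stat5ca (−0.34 ± 0.09), where Ikzf4 was higher.

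Helper T-cell genes (12 measured) had 7 rising and 1 falling in T-betKO Stat5ca against Stat5ca cells after transfer, the comparison in which Cd40lg rose, beside 7.03% and 13.8% of all genes. Maf, a factor of interleukin-4 producing cells, rose by 2.04 ± 0.37 and Pdcd1 by 1.40 ± 0.31. Il4 and Il2 averaged 8.28 and 7.41 in T-betKO Stat5ca cells and lay under background in Stat5ca cells after transfer (6.94 and 6.24). Counted from the background, Il4 was at least 1.97-fold and Il2 at least 1.08-fold higher in T-betKO Stat5ca cells. Cd40, the receptor for the product of Cd40lg, rose by 0.77 ± 0.18. Cd200, another of the 7, was under background in both groups (7.19 and 6.50). In Stat5ca against control cells after transfer 2 rose and 4 fell, beside 16.9% and 8.46% of all genes, 1 of the 4, Cd200, under background in both groups, and with Maf at −2.43 ± 0.38, the same direction as Nrp1 and the macrophage markers. Maf and Cd40 are also expressed by macrophages, and the part of macrophage RNA in them was not tested.

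Among 9 partners of neuropilin, Plxna1, which encodes the plexin A1 signalling receptor, moved as Nrp1 did after transfer. It was higher in T-betKO Stat5ca than in Stat5ca cells (1.72 ± 0.37), lower in Stat5ca than in control cells after transfer (−2.23 ± 0.29), and higher in control cells after transfer than in naive cells (1.63 ± 0.29). The median change of the macrophage markers was 1.58, −2.15 and 2.60 in these 3 comparisons, and their part in Plxna1 was not tested. Of the 9 partners, 1 rose and 1 fell in the T-betKO comparison, beside 7.03% and 13.8% of all genes, and their mean was 8.40, 8.46 and 8.03 on T-betKO arrays 39, 40 and 41, against 8.02 in Stat5ca cells after transfer. Vegfa, which encodes a ligand of neuropilin-1, rose with Nrp1 in control cells at 72 h against naive cells (1.50 ± 0.23).

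Genes beside the members did not in general share their patterns, although both neighbours of Ikzf4 followed it in part. Lag3, an inhibitory receptor gene 16111 bases from Cd4, averaged 11.19 in Stat5ca cells and 11.02 in control cells at 72 h, against 7.96 in naive cells, and 8.03 in Stat5ca cells and 8.73 in control cells after transfer. Cd4 was lowest in control cells at 72 h. Suox, 215 bases from Ikzf4, had the highest likeness of any neighbour (r = 0.744) and averaged 9.93 in Stat5ca cells and 8.64 in control cells after transfer. It rose there with Stat5ca (1.29 ± 0.17, adjusted p = 0.000123), as Ikzf4 did, but not at 72 h (0.08 ± 0.17, adjusted p = 0.84). Erbb3, on the other side of Ikzf4, had a correlation of 0.637 with it. Its means were 8.73 in Stat5ca and 8.19 in control cells at 72 h, and 7.51 in naive cells. After transfer they were 7.60 in Stat5ca and 7.56 in control cells. Flicr, a noncoding gene that overlaps the Foxp3 locus and is known to restrain Foxp3 in mice, was under background on all 19 arrays, while Ccdc22 on the other side of Foxp3 averaged between 8.39 and 8.72 in every group. The correlation of Flicr with Foxp3 was 0.687, from Flicr signals under background.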

How the data were processed

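The authors deposited 1 log2 signal per probe set and array, made with Affymetrix Expression Console, per the submitters' processing notes; for its version, summarization and normalization the sources used here give nothing. The signals were not transformed further. The log2 scale was inferred from the span of the values, 3.13 to 14.94, and array medians lay between 7.69 and 7.89. Of 35557 probe sets, 21789 carried 1 gene, 1621 several and 12147 none. The brightest single-gene probe set stood for each of 19938 genes; 999 genes had more than 1.

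The differences come from lmFit and eBayes of limma 3.58.1 (R 4.3.3) without covariates. The 16 TCRP1A arrays entered 1 fit for 7 comparisons, so that groups of 2 shared the spread of the others, and all 19 arrays entered the fit for the T-betKO comparison. Group errors are SD and errors of differences are SE. The number of arrays limits the precision. The fit was tested on simulated data. Alternatives were a minimum change of 0.5, other sets of arrays, quantile normalization, median centring, leaving out dim genes, averaging probe sets, another prior, array weights, the RNA integrity number, the macrophage level or Xist as covariate, and leaving out arrays.

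The members, the lists, the markers and the alternatives were chosen with earlier results of these data known. Genes named are the members, Stat5a, Stat5b and Tbx21, the 3 genes most like each member by Pearson correlation, the nearest measured neighbours, and up to 4 called members of each list with the largest change; Cd40, Satb1, Foxp1, Ikzf5, Plxna1, Xist and Cd200, and other list genes past the fourth, were added after their values were seen. List genes without a single-gene probe set were not analysed here. Promoter sequences are from RefSeq (GRCm38), which gave 7 windows for 4 members. Tables used pandas 2.3.3, numpy 2.4.6 and Python 3.11.15; plots used matplotlib 3.10.9.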

Additional observations from a re-analysis of the deposited data

Results flagged for a closer look

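Of 24 groups of 4 arrays tested for a stray array, 2 had one, about as many as the 1 in 20 that chance gives. In Stat5ca cells after transfer, the lowest Foxp3 array, 14, stood at 8.13 while the other 3 lay between 8.27 and 8.29. In naive cells the highest Ikzf2 array, 35, stood at 9.10 while the other 3 lay between 8.26 and 8.32.

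For 2 members the Stat5ca effect differed between the times by a test of the difference itself. The Cd4 difference was −2.25 ± 0.38 (adjusted p = 0.00107, limma), being lower with Stat5ca on 4 of 4 arrays after transfer and higher on 2 of 2 arrays at 72 h than every control array of the same time. The Foxp3 difference was −1.08 ± 0.15 (adjusted p = 0.000388, limma). Leaving out each array in turn gave −2.43 to −2.08 for Cd4 and −1.26 to −0.90 for Foxp3, with every call kept.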

How the results depend on the processing

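The number of members called stayed within 1.5 times its reported value under 18 of 18 alternatives for control cells after transfer against control cells at 72 h, 21 of 22 for control cells at 72 h against naive cells, and 11 of 20 for control cells after transfer against naive cells. A minimum change of 0.5 left 1 of 6 calls for control cells at 72 h against naive cells, 1 of 3 for Stat5ca at 72 h, 0 of 4 for control cells after transfer against naive cells, 0 of 5 for Stat5ca after transfer, 2 of 4 for Stat5ca cells after transfer against 72 h and 1 of 2 for the difference of Stat5ca effects. For control cells after transfer against naive cells, 0 were called with only the compared arrays, 2 with array weights, 1 with the macrophage level and 2 without naive arrays 33 and 35. Array weights gave 5 at 72 h with Stat5ca, 4 for the difference of effects and 6 for T-betKO Stat5ca. Leaving out each array gave 5 to 7 calls for control cells at 72 h against naive cells, 1 to 4 for Stat5ca at 72 h, 0 to 4 for control cells after transfer against naive cells and 4 to 4 against 72 h, 2 to 5 for Stat5ca after transfer, 4 to 4 for Stat5ca cells after transfer against 72 h, 2 to 2 for the difference of effects and 3 to 4 for T-betKO Stat5ca.

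The reversals were of differences not called in the report. The macrophage level turned Nrp1 (0.18) for Stat5ca at 72 h, Ikzf4 (0.020) for control cells after transfer against naive cells, Nrp1 (−1.64, now called) and Zbtb7b (−0.34) against 72 h, and Zbtb7b (−0.082) and Runx3 (0.14) for T-betKO Stat5ca. The macrophage means of the groups compared did not overlap in any of these, so that the values are extrapolated. Against naive cells, Cd40lg in control cells at 72 h turned under quantile normalization (0.15), centring (0.030), Xist (0.038) and without naive arrays 33 and 35 (0.029), and Zbtb7b under array weights (−0.046) and without those arrays (−0.035). The RNA integrity number turned Foxp3 in control cells after transfer against 72 h (−0.00091), Ikzf2 for Stat5ca after transfer (0.090) and Ikzf2 for the difference of effects (0.42). Xist turned the last 2 as well (0.19 and 0.28), array weights the last (0.34), and quantile normalization Cd4 for Stat5ca cells after transfer against 72 h (0.0037). Without T-betKO arrays 39 and 40, Cd4 (−0.0062), Zbtb7b (−0.20) and Runx3 (0.082) turned. Leaving out single arrays gave −0.059 to 0.053 for Cd40lg in control cells at 72 h, −0.29 to 0.16 for Ikzf2 and −0.014 to 0.31 for Zbtb7b with Stat5ca at 72 h, −0.18 to 0.17 for Cd4 in Stat5ca cells after transfer against 72 h, and −0.26 to 0.19 for Ikzf2 in the difference of effects. The cause of these changes was not tested. No paired analysis was possible because the labels give no replicate number that groups share. Groups of 2 arrays and signals near background limit what could be shown for Cd40lg, Cd4 and Nrp1.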
